A study of Mus musculus with 11 samples.

Results

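Collagens are the triple-helical proteins of the extracellular matrix, and each gene of the family encodes 1 alpha chain. The members were all gene symbols of the form Col, a number, a and a number in the deposited table, 44 of 20640 symbols, and 20 of them reached 1 RPKM (a read count divided by gene length and by library depth) in at least 2 of the 11 libraries and were tested. The libraries are bulk RNA-seq of limb muscle stem cells from Pax7-CreERT2;Rosa-YFP mice, in which tamoxifen lets Cre made from the Pax7 gene switch on a lasting YFP label. All mice received tamoxifen at 240 mg/kg on 5 days at 12 to 14 weeks of age, and all sorts kept YFP+ cells that lacked Sca-1, CD31 and CD45. The middle-aged group has 3 libraries, from mice given as 10 to 14 months old in the sample labels and as 12 to 14 months in the extraction protocol. Cells of geriatric mice (over 28 months) form 3 groups by surface VCAM1, which are VCAM1-negative (3 libraries), VCAM1-low (2) and VCAM1-high (3) in the sample titles. The design text names the 2 lower gates differently, as Mid and as Low/-, so how much VCAM1 the cells called VCAM1-low and VCAM1-negative carried is uncertain, and the titles are followed. No VCAM1 gate stands in the middle-aged titles, so age, gate and time since labelling all differ in comparisons with that group. The labels do not tell whether replicates came from separate mice, and the p-values therefore measure the spread between these libraries, which may be technical. In bulk RNA, fewer cells that make a transcript and less of it per cell cannot be told apart.

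Fibrillar collagens form the fibres of connective tissue, basement membrane (type IV) collagens form the sheet that wraps each muscle fibre and the stem cells on it, and FACIT collagens sit on the surface of fibrils. The remaining members include the type VI beaded filaments, the short-chain type VIII network, the multiplexins of basement membrane zones and the transmembrane collagens. Muscle stem cells lie beneath the basement membrane and make part of their own matrix. In mice, type V collagen from these cells has been described as a Notch target that holds them quiescent through the calcitonin receptor, and type VI collagen as a niche component needed for self-renewal.

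Of the 44 members, 11 were fibrillar (6 tested), 6 basement membrane (4 tested), 9 FACIT (3 tested) and 18 other (7 tested). The sequences just upstream of the annotated starts are given for 4 members that the results turn on: Col3a1, the most abundant chain in middle-aged cells, Col8a1, which was higher in VCAM1-high than in middle-aged cells, Col5a3 and Col6a1. Each is the 250 bases before the start, 5′ to 3′ on the strand of the gene, from RefSeq on GRCm38.p6, a different build from the GRCm39 named in the submitters' processing notes. The windows are Col3a1 at chr1:45311288-45311537 (plus strand), Col8a1 at chr16:57754738-57754987 (minus strand), Col5a3 at chr9:20815068-20815317 (minus strand) and Col6a1 at chr10:76726045-76726294 (minus strand). Capitals mark matches to the motifs described after the sequences.
Col3a1: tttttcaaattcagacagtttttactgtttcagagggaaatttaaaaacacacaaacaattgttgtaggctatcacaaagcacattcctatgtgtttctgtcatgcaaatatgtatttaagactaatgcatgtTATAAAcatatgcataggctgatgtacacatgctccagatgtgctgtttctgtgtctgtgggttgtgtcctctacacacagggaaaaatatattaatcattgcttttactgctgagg
Col8a1: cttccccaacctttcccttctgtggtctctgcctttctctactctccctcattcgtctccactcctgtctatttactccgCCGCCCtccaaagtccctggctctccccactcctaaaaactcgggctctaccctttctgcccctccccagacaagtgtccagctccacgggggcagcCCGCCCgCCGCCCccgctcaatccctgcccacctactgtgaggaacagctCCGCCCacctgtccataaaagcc
Col5a3: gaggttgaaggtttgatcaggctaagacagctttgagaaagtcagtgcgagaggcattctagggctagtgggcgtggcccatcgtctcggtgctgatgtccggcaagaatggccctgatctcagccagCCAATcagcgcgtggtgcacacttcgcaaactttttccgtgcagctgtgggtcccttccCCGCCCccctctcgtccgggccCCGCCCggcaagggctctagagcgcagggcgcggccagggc
Col6a1: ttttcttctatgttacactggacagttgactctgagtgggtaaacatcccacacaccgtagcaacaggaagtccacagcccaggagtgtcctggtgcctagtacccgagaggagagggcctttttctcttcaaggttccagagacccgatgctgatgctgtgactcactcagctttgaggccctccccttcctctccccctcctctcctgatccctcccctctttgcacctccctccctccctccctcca

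The motifs searched on both strands were the CCAAT box, the TATA box as TATAAA, the GC box as GGGCGG, and the core of the RBPJ site through which Notch acts as TGGGAA. No match shown in capitals overlaps another. The Col3a1 window held TATAAA beginning 117 bases before the start and no GC box. The Col8a1 window held 4 GC boxes on the opposite strand, printed as CCGCCC. The Col5a3 window held CCAAT and 2 GC boxes on the opposite strand, and the Col6a1 window held none of the 4 motifs. A RefSeq window was matched for 35 of the 44 members and for 16 of the 20 tested members, which have 18 windows in all. The GC box lay in 11 of those 18 windows and in 32.7% of the 32817 windows of all genes, CCAAT in 8 and 33.8%, TATAAA in 2 and 12.4%, and TGGGAA in 4 and 21.6%. The windows of all genes were not limited to genes that passed the RPKM filter, so the 2 sets differ in expression too. These matches describe the letters of the windows and say nothing of which factor binds. Col4a1 and Col4a2, the main chains of type IV collagen, are transcribed in opposite directions from annotated starts whose first exons overlap by 22 bases. The amplification kit in the labels does not mark strand, so reads from overlapping genes cannot be told apart. In GENCODE M21, another annotation than the authors', 5 of the 20 tested members share exon bases with another gene, at most 2.497% of their exon length (Col5a1).

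RPKM values do not carry read counts, and depth was estimated from the steps of low values at 19.9 to 29.9 Mreads (M for mega) per library, which makes 1 read of a 1 kb gene at most 0.0503 RPKM. The stem cell transcripts Pax7 (1.71 to 7.85 RPKM) and Myf5 (26.7 to 175.6 RPKM) were present in all 11 libraries, and Myf5 averaged 149.1 RPKM in middle-aged and 63.1 in VCAM1-negative libraries. Of the 14 stem cell markers, 12 were lower in VCAM1-negative than in middle-aged cells, with a median difference of -0.93 on the log2 scale, and Vcam1, Calcr and Itga7 passed the limma test described with the first comparison, 3 of 14 (1 to 4 with 1 library omitted) where 7.38% of all genes were lower. The geriatric gates were drawn on the protein that Vcam1 encodes, so its call is not independent of the sort. Middle-aged replicate 3 and VCAM1-high replicate 3 stood apart in transcripts of other cells. The summed level of 12 macrophage markers was 1009 RPKM in VCAM1-high replicate 3 and 23.7 to 255.3 in the other libraries. The summed level of 13 endothelial markers was 236.5 RPKM in middle-aged replicate 3 and 17.4 to 110.7 elsewhere. The 13 myofibre markers in the table summed to 700.4, 7249 and 5642 RPKM in VCAM1-negative replicates 1 to 3 and to 57.5 to 336.8 in the other groups. The 4 erythroid markers in the table summed to 5.77 to 164.7 RPKM in middle-aged, 14.0 to 488.1 in VCAM1-high, 524.0 to 650.2 in VCAM1-low and 193.8 to 650.3 in VCAM1-negative libraries. Their 3 tested members had median differences of 3.28 (VCAM1-negative) and 3.98 (VCAM1-low) from middle-aged cells on the log2 scale, with 0 called without and 3 with replicate number as a block in 11 libraries. Mural marker sums lay between 186.0 and 498.2 RPKM for middle-aged libraries but between 84.0 and 163.1 for VCAM1-negative libraries. The Schwann sums lay at 372.4 to 426.9 against 140.0 to 220.8 RPKM and were mostly Pmp22. Of 9 tested mural markers 5 were lower in VCAM1-negative cells. Limma called Tagln lower (adjusted p = 0.0112) and Abcc9 higher (adjusted p = 0.0297). Of 4 tested Schwann markers only Pmp22 was lower (adjusted p = 0.0297 in limma). The part of erythroid, mural and Schwann cells in the collagen differences was not tested. Counts of genes called and ratios of class sums are therefore also given with single libraries left out. Such counts stand without the share of all genes called in the same run. They show how calls moved and not an excess among the members.

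Collagen transcripts made up 0.0170% to 0.170% of all RPKM in a library. The 44 members summed to 703.9, 675.9 and 745.3 RPKM in the middle-aged replicates 1 to 3. The VCAM1-high sums were 199.2, 150.5 and 620.8 RPKM, the VCAM1-low sums 146.6 and 80.2, and the VCAM1-negative sums 128.3, 75.1 and 229.3. All 8 geriatric libraries were thus below all middle-aged ones, and VCAM1-high replicate 3 lay closer to the middle-aged libraries than to its own group. The fibrillar class differed by the largest ratio of means between middle-aged and VCAM1-negative libraries, 8.17, from 414.6 ± 11.2 (SD, n = 3) to 50.8 ± 30.5 RPKM (n = 3). Col3a1 alone averaged 309.9 of these 414.6 RPKM and 18.4 of these 50.8 RPKM, so the first rank of the fibrillar class rests on that gene. The ratio was 3.04 for the basement membrane class (96.7 ± 6.47 to 31.8 ± 16.7 RPKM), 1.75 for the FACIT class (21.7 ± 2.88 to 12.4 ± 2.95 RPKM) and 3.56 for the other members (175.4 ± 34.4 to 49.3 ± 28.6 RPKM). With 1 library of either group left out, the fibrillar ratio ran from 6.56 to 12.28, the basement membrane ratio from 2.48 to 4.26, the FACIT ratio from 1.56 to 1.98 and that of the other members from 2.80 to 5.12, the lowest values without VCAM1-negative replicate 2 and the highest without VCAM1-negative replicate 3. Col3a1 alone held 38.9% to 47.8% of the collagen RPKM in middle-aged libraries and 8.38% to 14.6% in geriatric ones, apart from VCAM1-high replicate 3 at 32.4%. Without Col3a1 the remaining 43 members still summed to 398.5 ± 49.4 RPKM in middle-aged and 125.8 ± 65.5 RPKM in VCAM1-negative libraries, a ratio of 3.17 (2.58 to 4.42 with 1 library left out).

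**Figure D1:**
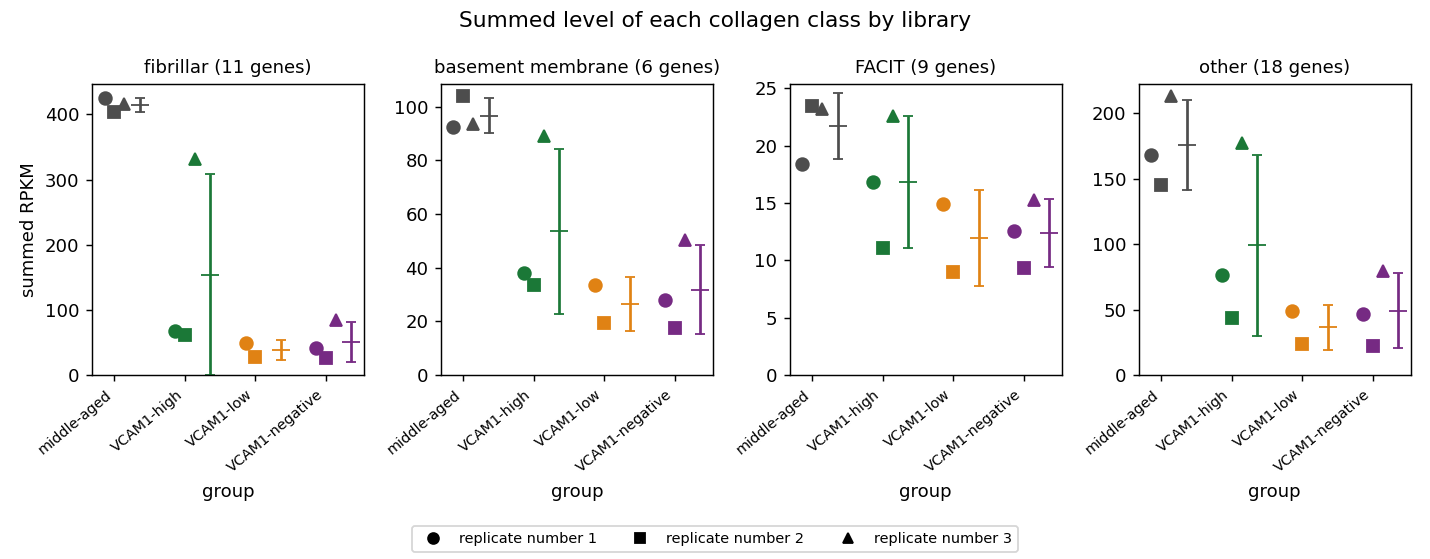
Summed RPKM of the 4 collagen classes in each library (vertical axis, linear, from 0) by group (horizontal axis), with symbols for replicate numbers and a bar for the mean ± SD; the lower end of the fibrillar bar of VCAM1-high lies just under 0 and is cut off by the axis. Fibrillar sums of the middle-aged libraries lie between 403.0 and 425.2 RPKM, and VCAM1-high replicate 3 (332.2 RPKM) is the highest geriatric library.

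**Figure D2:**
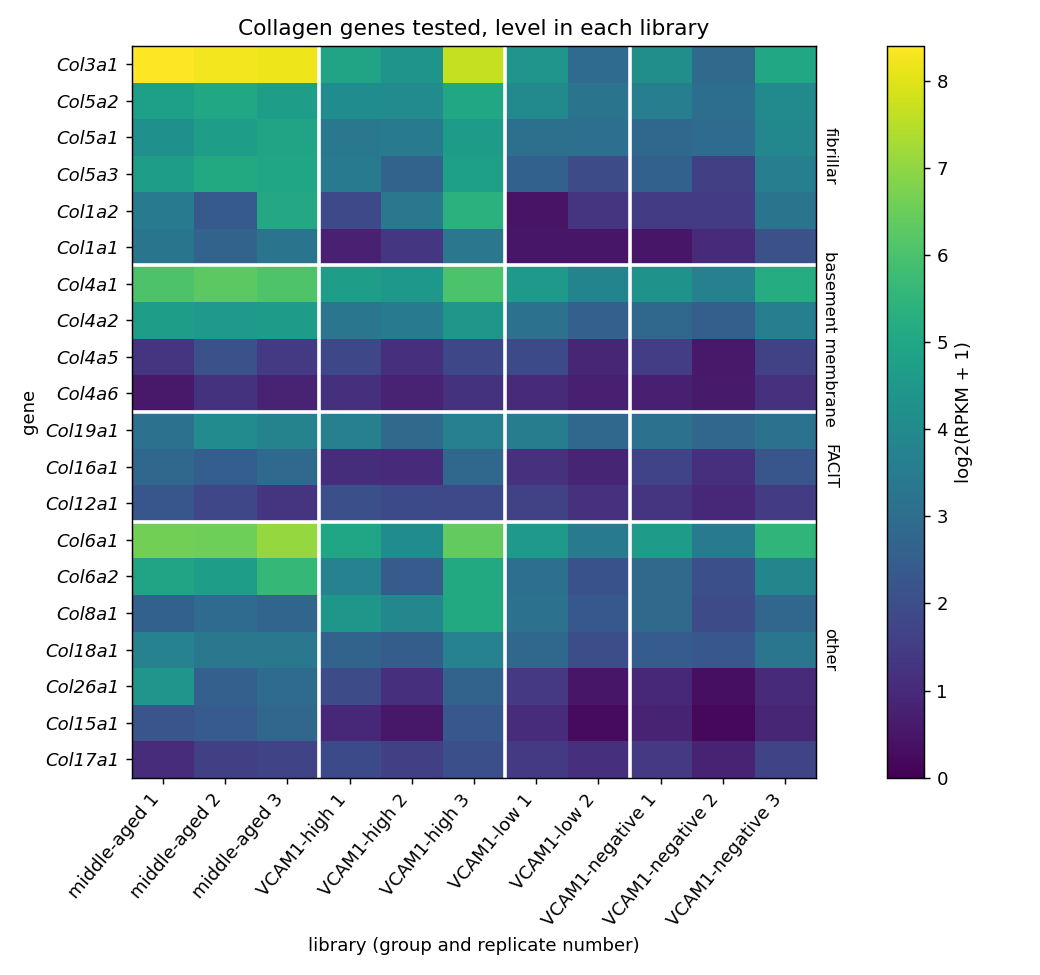
Level of the 20 tested collagen genes (rows, by class and then by mean) in each of the 11 libraries (columns), as log2(RPKM + 1) in colour. Col3a1, Col6a1 and Col4a1 are the brightest rows, and Col8a1 is brightest in VCAM1-high.

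Collagens were compared first between VCAM1-negative geriatric and middle-aged cells. A limma model across all 11568 tested genes, on log2(RPKM + 1) and with p-values adjusted by Benjamini and Hochberg, called 10 of the 20 members at adjusted p under 0.05, all lower in VCAM1-negative cells. Of all genes tested 14.4% were called, 7.38% lower. The median difference of the 20 members was -1.48 on the log2 scale and that of all genes -0.02, and 20 of the 20 members lay below 0. The 13 members whose libraries did not overlap, all lower, compare with 20.3% of all genes. Fold changes are on the log2(RPKM + 1) scale, which understates those of low genes, and the errors beside them are standard errors of the fit.

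Of the 6 tested fibrillar chains, 4 fell. Col3a1, the type III chain of extensible tissue, read 336.7, 302.9 and 289.9 RPKM in middle-aged replicates and 16.7, 6.46 and 32.0 in VCAM1-negative replicates. The groups did not overlap, and the fall was 4.25 ± 0.77 on the log2 scale (adjusted p = 0.0104). The type V chains, which start and limit the growth of fibrils, fell too. Col5a3 read 25.3, 33.7 and 29.9 RPKM in middle-aged and 5.06, 2.01 and 11.1 in VCAM1-negative libraries, a change of -2.33 ± 0.54 (adjusted p = 0.0215). Col5a1 read 17.8, 24.6 and 28.8 RPKM against 6.08, 6.60 and 14.1 (-1.38 ± 0.37, adjusted p = 0.0338). Col5a2 read 25.9, 30.9 and 25.1 RPKM against 11.03, 7.28 and 15.3 (-1.26 ± 0.32, adjusted p = 0.0295). None of the type V chains overlapped between the 2 groups. The type I chains, the main fibre-formers of tendon and bone, did not pass the test. Col1a1 read 8.62, 5.34 and 8.31 RPKM in middle-aged and 0.415, 1.06 and 3.26 in VCAM1-negative libraries (-1.84 ± 0.58, adjusted p = 0.0541). Col1a2 read 10.2, 4.22 and 32.6 RPKM against 1.78, 1.78 and 8.37, and these overlapped (-1.59 ± 0.87, adjusted p = 0.221).

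In the basement membrane class the 2 abundant chains fell. Col4a1 read 66.0, 77.5 and 67.0 RPKM in middle-aged and 18.9, 11.6 and 35.4 in VCAM1-negative libraries (-1.76 ± 0.44, adjusted p = 0.0272). Its partner Col4a2 read 24.4, 21.8 and 23.7 RPKM against 6.18, 4.84 and 11.1 (-1.60 ± 0.33, adjusted p = 0.0152). Neither overlapped. Col4a5 (1.41, 3.26 and 1.70 RPKM against 1.85, 0.489 and 2.15) and Col4a6 (0.473 to 1.36 RPKM over all 11 libraries), minor chains of other type IV networks, overlapped and did not pass (adjusted p = 0.524 and 0.939).

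No FACIT member passed. Col19a1, known from mouse embryos as a chain of differentiating muscle, read 7.81, 15.5 and 12.5 RPKM in middle-aged and 7.80, 5.82 and 7.998 in VCAM1-negative libraries (-0.62 ± 0.30, adjusted p = 0.165). Col16a1 read 6.20, 4.69 and 6.38 RPKM against 2.26, 1.21 and 3.70, without overlap (-1.05 ± 0.44, adjusted p = 0.117). Col12a1, a chain on the fibrils of tendon and muscle fascia, read 3.71, 2.43 and 1.45 RPKM against 1.45, 0.906 and 1.79 (-0.53 ± 0.25, adjusted p = 0.162).

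Of the other members 4 fell. Col6a1, a chain of type VI beaded filaments, read 96.3, 91.9 and 132.1 RPKM in middle-aged and 24.0, 10.0 and 44.5 in VCAM1-negative libraries (-2.19 ± 0.59, adjusted p = 0.035). Col6a2, its partner chain, read 28.9, 25.2 and 47.9 RPKM against 6.56, 3.14 and 13.5 (-2.13 ± 0.62, adjusted p = 0.0438). Both were lower in every VCAM1-negative than in every middle-aged library. Col26a1, a chain with an EMI domain, read 19.7, 4.97 and 6.70 RPKM against 0.972, 0.278 and 1.03 (-2.51 ± 0.49, adjusted p = 0.0122). Col15a1, a multiplexin of muscle basement membrane zones, read 3.67, 4.32 and 5.85 RPKM against 0.746, 0.130 and 0.867 (-1.84 ± 0.41, adjusted p = 0.0202). Col18a1, the multiplexin that releases endostatin, read 12.1, 9.36 and 9.38 RPKM against 4.47, 3.89 and 8.87 (-0.81 ± 0.36, adjusted p = 0.144). Col8a1 read 5.04, 6.68 and 5.62 RPKM against 6.50, 2.75 and 5.90 (-0.22 ± 0.35, adjusted p = 0.683), and Col17a1, a transmembrane chain of cell anchors, stood between 1.11 and 2.32 RPKM against 0.774 to 2.28 RPKM (adjusted p = 0.705).

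Which members passed depended on single libraries. Over 11 omissions of 1 library, Col3a1 was called in 11, with adjusted p up to 0.0418. Col26a1 and Col4a2 were lost without VCAM1-negative replicate 2 (adjusted p = 0.0521 and 0.0617), and Col15a1 without that library or middle-aged replicate 3 (up to 0.0819). Without VCAM1-negative replicate 2 the count was 1 of 20 members. It was 5 without VCAM1-negative replicate 1, and 4, 4 and 3 without middle-aged replicates 1, 2 and 3, while the differences of the 10 members kept their sign. Leaving out middle-aged replicate 3 and VCAM1-high replicate 3 together gave 11, and leaving out every number-3 library gave 13. The shares of all genes called in these runs are not given, so the changes in count cannot be read as particular to collagens. Without a filter on low values the count was 4. Myofibre transcripts were highest in VCAM1-negative libraries, and their part in these differences was not tested.

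**Figure D3:**
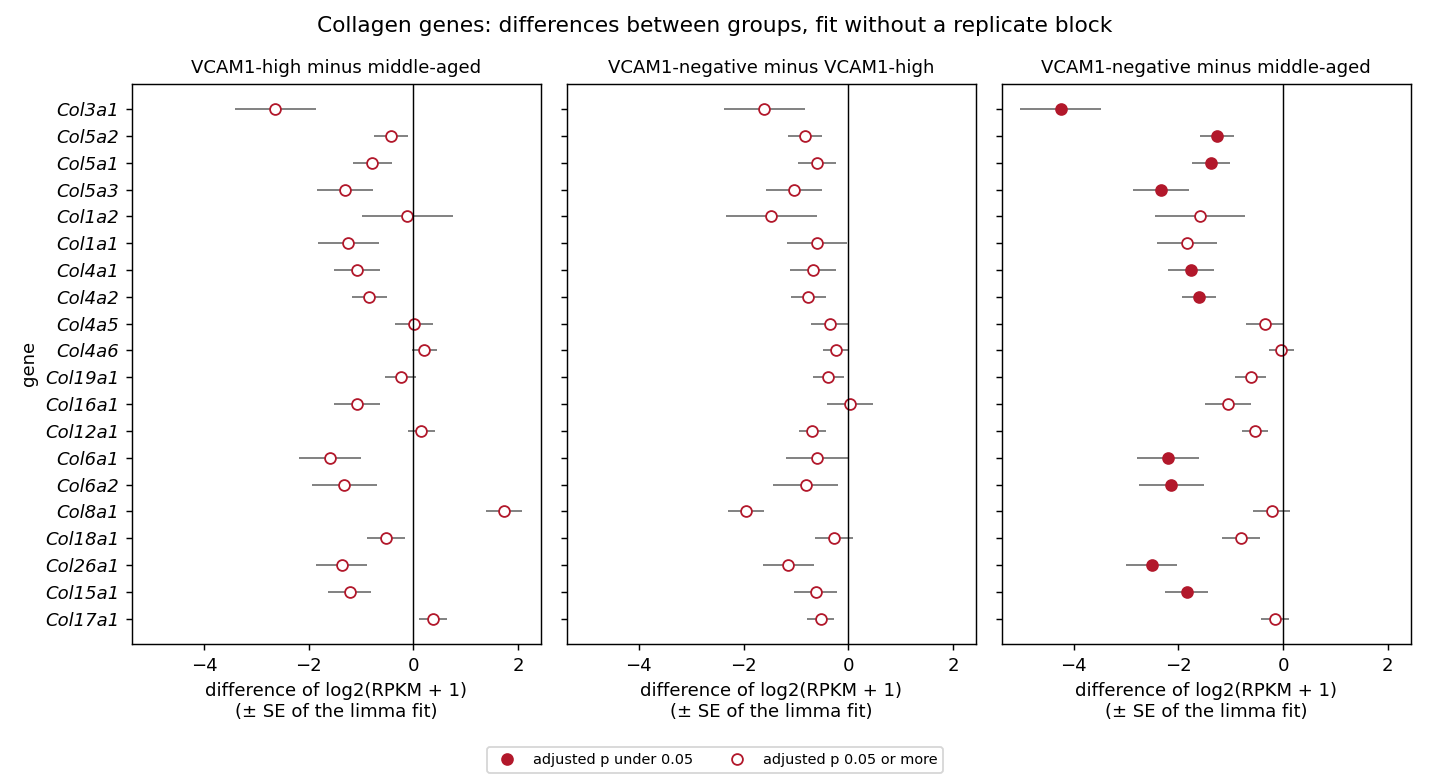
Differences of log2(RPKM + 1) with standard errors (horizontal axis) for the 20 tested collagen genes (vertical axis) in 3 comparisons; filled points have adjusted p under 0.05 in the fit without a replicate block. Filled points appear in VCAM1-negative against middle-aged cells, where 10 members were called, and Col8a1 is the point farthest to the right in VCAM1-high against middle-aged cells.

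VCAM1-high geriatric cells were next compared with middle-aged cells, using the same 3 middle-aged libraries. Here 0 of 20 members were called at adjusted p under 0.05, where 0.605% of all genes were called in the limma fit. At an unadjusted p under 0.05, 8 members were lower and 1 higher, against 5.12% and 9.79% of all genes. Deviations of same-numbered libraries from the group means correlated over genes at 0.211 or more. The mice of these groups differed in age, so libraries of equal number cannot come from the same mouse. The labels do not tell what else they share, and a pairing is assumed. The highest correlation, 0.554, was that of the number-3 libraries, which stood apart in transcripts of other cells. With replicate number as a block in 11 libraries 7 members were called, where 6.98% of all genes were, 4.17% higher and 2.81% lower. With the block, Col8a1 rose and Col3a1, Col15a1, Col26a1, Col5a1, Col6a1 and Col6a2 fell.

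Col8a1, a chain of the hexagonal networks of vessel walls and the cornea, differed in direction from the members that fell. It read 21.03, 13.9 and 33.3 RPKM in VCAM1-high replicates 1 to 3, above all 3 middle-aged libraries (5.04 to 6.68 RPKM). The difference was 1.73 ± 0.35 on the log2 scale (adjusted p = 0.0559 without the block and 0.0131 with it). It was the only tested member whose VCAM1-high libraries all lay above the middle-aged ones, where 13.8% of all genes did so. With the block the call was lost without VCAM1-high replicate 1 or 2, with adjusted p up to 0.0713 over the 11 omissions.

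Within VCAM1-high, each of the 6 members that fell with the block was highest in replicate 3. Col3a1 read 29.0 and 19.4 RPKM in VCAM1-high replicates 1 and 2 and 201.2 in replicate 3, all below the middle-aged libraries (-2.64 ± 0.77, adjusted p = 0.147, with the block 0.0282). Col6a1 read 30.1, 15.8 and 82.97 RPKM (-1.59 ± 0.59, adjusted p = 0.243, with the block 0.0216), and Col6a2 12.1, 4.43 and 33.5 RPKM (-1.32 ± 0.62, adjusted p = 0.349, with the block 0.0274). Col5a1 read 9.27, 10.0 and 23.8 RPKM (-0.78 ± 0.37, adjusted p = 0.349, with the block 0.0396). Col15a1 read 0.912, 0.441 and 3.87 RPKM (-1.22 ± 0.41, adjusted p = 0.206, with the block 0.0385), and Col26a1 2.89, 1.24 and 5.33 RPKM (-1.37 ± 0.49, adjusted p = 0.224, with the block 0.0445). Replicate 3 lay within the range of the middle-aged libraries for Col5a1, Col6a2, Col15a1 and Col26a1. Col4a1 at 25.0, 21.1 and 64.1 RPKM and Col4a2 at 8.94, 10.4 and 20.9 RPKM lay below all middle-aged libraries without passing (adjusted p = 0.279 and 0.264, with the block 0.0737 and 0.0617). In all, 4 members had VCAM1-high libraries wholly below the middle-aged ones, where 6.36% of all genes did. Without VCAM1-high replicate 3, the library with the macrophage transcripts, the unblocked count was 4, all lower, and without every number-3 library it was 3. With the block the count was 0 without VCAM1-high replicate 1 or replicate 2, 2 without middle-aged replicate 2 or either VCAM1-low library, 4 without VCAM1-negative replicate 2, 9 without VCAM1-high replicate 3 and 13 without middle-aged replicate 3, and it was 1 without a filter on low values. The part of other cells in VCAM1-high replicate 3 was not tested.

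Within the geriatric mice, VCAM1-negative cells were compared with VCAM1-high cells. Without a block 0 of 20 members were called, and 0% of all genes were, while at an unadjusted p under 0.05 the limma fit had 5 members lower and 0 higher, against 4.16% and 2.37% of all genes. Deviations of same-numbered libraries correlated here as well (0.403 or more), and a pairing is again assumed. With the block in 11 libraries Col8a1 was called (adjusted p = 0.0265), where 0.562% of all genes were, and that call held in 4 of 11 omissions of 1 library, with adjusted p up to 0.151. With the block in the 8 geriatric libraries 11 members were called, all lower in VCAM1-negative cells, where 4.42% of all genes were called and 3.43% lower. Within each replicate number, VCAM1-negative was below VCAM1-high in all 3 numbers for 19 of 20 members, and for 30.6% of all genes. Col16a1 was the exception (VCAM1-negative over VCAM1-high 1.97, 1.13 and 0.597 in numbers 1 to 3). The median difference was -0.65 on the log2 scale for the members and -0.07 for all genes.

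Col8a1 had the largest difference of the family, with 21.03, 13.9 and 33.3 RPKM in VCAM1-high and 6.50, 2.75 and 5.90 in VCAM1-negative replicates 1 to 3. The groups did not overlap, as for 8.08% of all genes in this direction, and the ratio of VCAM1-negative to VCAM1-high was 0.309, 0.198 and 0.177 by number. The change was -1.95 ± 0.35 (adjusted p = 0.0757) without a block and -1.95 ± 0.16 (adjusted p = 0.00442) with the block in geriatric libraries. It was called with that block in 8 of 8 omissions of 1 geriatric library, with adjusted p up to 0.0418. Its mean level was thus highest in VCAM1-high (22.7 ± 9.81 RPKM, n = 3), while VCAM1-low (5.82 ± 2.67, n = 2), middle-aged (5.78 ± 0.83, n = 3) and VCAM1-negative (5.05 ± 2.01, n = 3) followed, and the middle-aged, VCAM1-low and VCAM1-negative levels overlapped each other.

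The other 10 members called with the geriatric block came from 3 classes. Col5a3 (-1.03 ± 0.13, adjusted p = 0.0135), Col5a2 (-0.83 ± 0.15, adjusted p = 0.0336), Col5a1 (-0.60 ± 0.11, adjusted p = 0.0338), Col3a1 (-1.61 ± 0.31, adjusted p = 0.0373) and Col1a2 (-1.47 ± 0.31, adjusted p = 0.0448) are fibrillar. Col5a3 read 9.86, 5.45 and 25.7 RPKM in VCAM1-high and, within the same numbers, 5.06, 2.01 and 11.1 in VCAM1-negative cells. Col5a2 read 16.1, 15.5 and 31.3 RPKM in VCAM1-high, all above its VCAM1-negative libraries. Col1a2 read 2.63, 9.23 and 40.2 RPKM in VCAM1-high, with replicate 3 far above the others. The type IV chains Col4a1 (-0.68 ± 0.13, adjusted p = 0.0373) and Col4a2 (-0.76 ± 0.16, adjusted p = 0.0433) fell, as did Col26a1 (-1.14 ± 0.19, adjusted p = 0.0268), Col6a2 (-0.81 ± 0.17, adjusted p = 0.0442) and Col6a1 (-0.60 ± 0.13, adjusted p = 0.0461). Their number changed with single libraries. With the geriatric block, 1 member was called without VCAM1-high replicate 2, VCAM1-negative replicate 2 or either VCAM1-low library, 5 without VCAM1-negative replicate 1, 6 without VCAM1-high replicate 1, 7 without VCAM1-high replicate 3 and 9 without VCAM1-negative replicate 3. Without all number-3 libraries 9 were called with that block, and without a filter on low values 0 were. In the fit without a block, the Col6a1 difference was 0.03 on the log2 scale without VCAM1-high replicate 3.

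**Figure D4:**
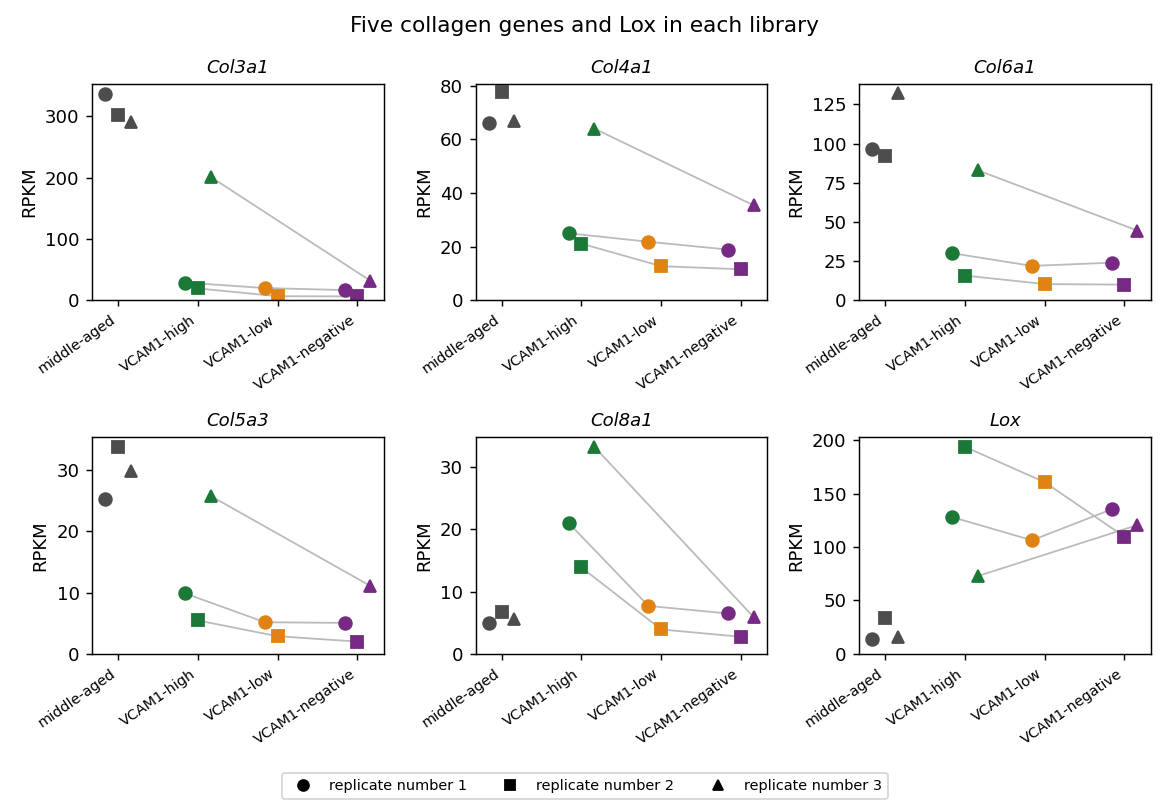
RPKM (vertical axes, linear, from 0) of Col3a1, Col4a1, Col6a1, Col5a3, Col8a1 and the crosslinking enzyme gene Lox in each library by group, with symbols for replicate numbers and lines joining geriatric libraries of the same number. VCAM1-negative lies below VCAM1-high in each number for the 5 collagens, and Lox is higher in all geriatric libraries (72.8 to 193.7 RPKM) than in the middle-aged ones (14.0 to 33.8 RPKM).

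VCAM1-low cells had 2 libraries. Against middle-aged cells 6 members were called, all lower, where 4.11% of all genes were called and 1.88% lower. Col3a1 read 20.0 and 6.72 RPKM (-4.61 ± 0.87, limma adjusted p = 0.0246) and Col4a2 7.68 and 4.94 RPKM (-1.76 ± 0.37, adjusted p = 0.0337). Col5a3 read 5.17 and 2.88 RPKM (adjusted p = 0.0388), Col26a1 1.65 and 0.427 (adjusted p = 0.0424), Col6a1 22.0 and 10.4 (adjusted p = 0.0476) and Col4a1 21.8 and 12.7 (adjusted p = 0.0477). The count was 0 without any 1 of the middle-aged or VCAM1-low libraries, 2 without VCAM1-high replicate 1 or VCAM1-negative replicate 1, and 12 without VCAM1-high replicate 3. Against VCAM1-high cells 0 of 20 were called, and 0% of all genes, with 5 members lower and 0 higher at an unadjusted p under 0.05 against 2.33% and 0.579% of all genes. Of the members, 16 were below VCAM1-high in both replicate numbers, and so were 41.4% of all genes. Col8a1, at 7.71 and 3.94 RPKM, had the largest difference relative to its error (-1.77 ± 0.39, unadjusted p = 0.000792, adjusted p = 0.982). Between VCAM1-negative and VCAM1-low cells 0 members and 0% of all genes were called, with 0 members and 1.76% (higher) and 0.112% (lower) of all genes at an unadjusted p under 0.05. An F test for any difference among the 4 groups called Col8a1 and Col3a1 (adjusted p = 0.0318 each), Col4a2 (0.0421) and Col26a1 (0.045), where 3.32% of all genes were called. That count of 4 was 0 without any 1 of the middle-aged libraries or VCAM1-low replicate 2, and 1 without VCAM1-high replicate 1 or VCAM1-negative replicate 2. It was 2 without VCAM1-low replicate 1, VCAM1-negative replicate 1 or VCAM1-negative replicate 3, and 11 without VCAM1-high replicate 3. With replicate number as a block in 11 libraries the same test called 14 members, where 17.5% of all genes were called, and 10 to 16 with 1 library left out.

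Ratios of chains that assemble into 1 trimer varied less than the levels for the main type IV pair and for Col6a1 with Col6a2, but not for Col6a1 with Col6a3. The ratio of Col4a1 to Col4a2 RPKM ran from 2.03 to 3.55 over the 11 libraries, although Col4a1 itself ran from 11.6 to 77.5 RPKM. The ratio of Col6a1 to Col6a2 ran from 2.48 to 3.67, while Col6a1 ran from 10.0 to 132.1 RPKM. The third classical type VI chain, Col6a3, was under 1 RPKM in every library, and Col6a1 over Col6a3 ran from 123.4 to 2567, wider than Col6a1 itself. The 2567 was in VCAM1-low replicate 1, where Col6a3 read 0.00855 RPKM, near the floor set by depth. The width of this ratio is therefore uncertain. In the type V group, Col5a3 over Col5a1 averaged 0.533 ± 0.205 (SD, n = 2) in VCAM1-low and 0.642 ± 0.293 (n = 3) in VCAM1-negative libraries. It averaged 0.896 ± 0.306 (n = 3) in VCAM1-high and 1.28 ± 0.21 (n = 3) in middle-aged libraries. Middle-aged replicate 3, at 1.04, overlapped VCAM1-high, while all VCAM1-low and VCAM1-negative libraries lay below all middle-aged ones. The ratio of the type I chains, Col1a2 over Col1a1, was wide, from 0.791 to 6.21. Col3a1 and Col5a2 are chains of different types, III and V, and not partners in 1 trimer. Col3a1 over Col5a2 was 11.5 ± 1.60 in middle-aged libraries, 1.499 ± 0.604 in VCAM1-negative ones and 1.81, 1.25 and 6.43 in VCAM1-high replicates 1 to 3. These ratios are descriptions without a test.

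The enzymes and chaperones that make collagen were read from lists that do not overlap the members. Of 13 tested genes for proline and lysine modification, 4 fell between middle-aged and VCAM1-negative cells and 0 rose, where 7.38% of all genes fell and 7.06% rose. They are Ppib (-1.63 ± 0.27, adjusted p = 0.00843), P3h2 (-1.72 ± 0.34, adjusted p = 0.0137), Crtap (-1.93 ± 0.46, adjusted p = 0.0236) and P3h1 (-1.09 ± 0.33, adjusted p = 0.0475). Ppib, Crtap and P3h1 encode the complex that 3-hydroxylates proline in fibrillar collagens, and P3h2 encodes a related enzyme active on type IV collagen. Crtap read 59.8, 46.6 and 70.2 RPKM in middle-aged libraries. The VCAM1-negative libraries read 16.9, 7.75 and 23.0 RPKM, VCAM1-low 20.8 and 8.77, and VCAM1-high 30.9, 17.0 and 52.4. Its VCAM1-negative and middle-aged libraries did not overlap. The median difference of the 13 genes was -0.80, and that of all genes -0.02. With 1 library left out, 1 to 5 of the 13 fell, 1 without VCAM1-negative replicate 2 and 2 without middle-aged replicate 1 or 3. Ppib was called in all 11 omissions (adjusted p up to 0.036), whereas Crtap was lost without middle-aged replicate 1 or 3 or VCAM1-negative replicate 2 (up to 0.0909). P3h1 was called in 3 of 11 omissions (up to 0.167).

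Of 13 genes for collagen folding and export, 4 fell and 0 rose in the same comparison, against the same 7.38% and 7.06% of all genes. With 1 library left out 1 to 5 fell, 1 without VCAM1-negative replicate 2 and 2 without middle-aged replicate 1 or 3. Fkbp7 was called in all 11 omissions (adjusted p up to 0.0314). The rotamases Fkbp7 (-1.45 ± 0.24, adjusted p = 0.00843), Fkbp14 (-1.17 ± 0.23, adjusted p = 0.0119) and Fkbp10 (-1.45 ± 0.33, adjusted p = 0.0217) speed the folding of procollagen, and Sec13 (-0.78 ± 0.20, adjusted p = 0.0308) coats vesicles that leave the endoplasmic reticulum. Fkbp10 read 58.2, 39.4 and 58.2 RPKM in middle-aged and 18.6, 12.5 and 25.4 in VCAM1-negative libraries. Serpinh1, the collagen chaperone HSP47, is named after its values were seen. It read 480.4, 183.3 and 119.7 RPKM in middle-aged and 106.4, 23.8 and 27.5 in VCAM1-negative libraries, without overlap (-2.38 ± 0.74, adjusted p = 0.053). With the geriatric block, Ppib (adjusted p = 0.0131), Crtap (0.0121), Fkbp7 (0.0244) and Fkbp10 (0.024) were also lower in VCAM1-negative than in VCAM1-high cells, 2 of 13 genes in each list, where 3.43% of all genes were lower. None of the 4 was called with that block without VCAM1-high replicate 2, VCAM1-negative replicate 2 or either VCAM1-low library.

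Procollagen processing and crosslinking genes moved in both directions. Of 11 tested, 3 fell and 1 rose between middle-aged and VCAM1-negative cells, where 7.38% of all genes fell and 7.06% rose. Those that fell were Pxdn, the peroxidase that crosslinks type IV collagen (-1.45 ± 0.27, adjusted p = 0.0104), Bmp1, the procollagen C-proteinase (-1.40 ± 0.33, adjusted p = 0.0229), and Loxl2, a lysyl oxidase of basement membranes (-0.95 ± 0.29, adjusted p = 0.0483). Lox, the lysyl oxidase of fibrillar collagen and elastin, rose. It read 14.0, 33.8 and 15.7 RPKM in middle-aged libraries. The VCAM1-negative libraries read 135.3, 109.6 and 120.5 RPKM, VCAM1-low 106.3 and 160.6, and VCAM1-high 128.0, 193.7 and 72.8. All 8 geriatric libraries lay above the 3 middle-aged ones. The rise was 2.57 ± 0.38 in VCAM1-negative (adjusted p = 0.00486) and 2.58 ± 0.38 in VCAM1-high cells (adjusted p = 0.0171), both against the same middle-aged libraries. VCAM1-negative and VCAM1-high cells differed by -0.01 ± 0.38 (adjusted p = 0.999). In VCAM1-negative against middle-aged cells Lox and Pxdn were called in all 11 omissions of 1 library (adjusted p up to 0.0248 and 0.0452), while 1 to 6 genes of the list fell, 1 without middle-aged replicate 3 or VCAM1-negative replicate 2. Loxl2 was called in 2 of 11 omissions (up to 0.161). The Lox call in VCAM1-high cells was lost without middle-aged replicate 1 or 3 or VCAM1-high replicate 1 or 2 (up to 0.0752).

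Of 9 tested receptors for collagen, 2 fell between middle-aged and VCAM1-negative cells and 0 rose, where 7.38% of all genes fell. Itgb1, the integrin beta chain of the collagen-binding integrins, read 201.2, 189.7 and 194.3 RPKM in middle-aged and 112.2, 109.9 and 132.4 in VCAM1-negative libraries (-0.72 ± 0.18, adjusted p = 0.0257). Calcr, the calcitonin receptor described for type V collagen in mouse muscle stem cells, read 66.6, 101.5 and 94.1 RPKM against 41.9, 47.8 and 38.2 (-1.001 ± 0.269, adjusted p = 0.0349). Neither overlapped. The list's count was 0 without middle-aged replicate 2 or 3 or VCAM1-negative replicate 1 or 2, and 1 without middle-aged replicate 1 or VCAM1-negative replicate 3. Ddr2, a receptor kinase for fibrillar collagen, was lower in VCAM1-negative than in VCAM1-high cells with the geriatric block (-0.52 ± 0.11, adjusted p = 0.0456), with 8.08 to 16 RPKM in VCAM1-high and 5.02 to 10.4 in VCAM1-negative libraries, and that call was lost in 8 of 8 omissions of 1 geriatric library (adjusted p up to 0.173).

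Some members were high in the number-3 libraries, and these are described after their values were seen. Col1a2 stood at 4.53, 6.78 and 4.70 times the mean of replicates 1 and 2 in the number-3 libraries of the middle-aged, VCAM1-high and VCAM1-negative groups. Col6a3 stood at 17.6, 17.8 and 4.82 times, and Col14a1, a FACIT chain common in fibroblasts, at 60.4, 15.2 and 4.04 times, though both were near or under 1 RPKM in every library. Col8a1, at 0.958, 1.91 and 1.27 times, and Col19a1, at 1.07, 1.28 and 1.17 times, differed less. Col3a1 was 0.907 times in middle-aged but 8.33 times in VCAM1-high cells.

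Of 14 fibroblast and progenitor markers, 14 were highest in the number-3 library of the middle-aged group, 12 in that of VCAM1-high and 11 in that of VCAM1-negative cells, as were 29.3%, 40.5% and 45.8% of all tested genes. Ly6a, Dcn, Cxcl14 and Lsp1 were not highest there in every group, and Dcn read 439.4 RPKM in VCAM1-high replicate 3 and 500.6 in replicate 2. Of 8 tendon markers, 6, 5 and 6 were highest in the number-3 library of these groups. Pdgfra, the receptor that defines fibro-adipogenic progenitors, read 0.113, 0.136 and 1.69 RPKM in middle-aged libraries. The VCAM1-negative libraries read 0.963, 1.27 and 2.37 RPKM, VCAM1-low 0.717 and 0.874, and VCAM1-high 0.5003, 0.637 and 2.04. Fmod, a proteoglycan gene of tendon, read 94.9 RPKM in middle-aged replicate 3 and 0.201 and 0.445 in the other middle-aged libraries. The 14 fibroblast markers, all tested, had summed levels of 1876 to 3776 RPKM in middle-aged libraries and of 1341 to 2382 in VCAM1-negative ones, with VCAM1-low at 1348 to 1906 and VCAM1-high at 1394 to 2453. Gsn made up much of that sum (1463 of 1876 RPKM in middle-aged replicate 1, and 662.3 of 1341 in VCAM1-negative replicate 2). Cd34 is also on the stem cell list. From middle-aged to VCAM1-negative cells the median difference of the 14 was 0.11 on the log2 scale, with 7 below 0. Between middle-aged and VCAM1-negative cells 2 of the 14 fell and 1 rose, where 7.38% and 7.06% of all genes did (Dpt and Fbn1 fell and Dcn rose), and none of the 14 was under 0.1 RPKM in every library. Over 11 omissions of 1 library Dpt was called in 11, Fbn1 in 10 and Dcn in 3 (limma adjusted p up to 0.0409, 0.0705 and 0.12). The 8 tendon markers had summed levels of 1191 to 1742 RPKM in middle-aged libraries and of 496.6 to 914.0 in VCAM1-negative ones, with VCAM1-low at 609.2 to 1050 and VCAM1-high at 602.8 to 1643. Nearly all of that sum was Chodl (1175 of 1191 RPKM in middle-aged replicate 1, and 449.4 of 496.6 in VCAM1-negative replicate 2). Of the 7 tested tendon markers 3 were lower in VCAM1-negative than in middle-aged cells, the median difference was 0.03 on the log2 scale, and 0 fell and 1 rose by the test. The gene that rose was Scx, a tendon transcription factor, from 6.14 ± 1.12 to 15.2 ± 1.79 RPKM (SD, n = 3 each; adjusted p = 0.00972 in limma). The part of stromal cells in the collagen levels was not tested.

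**Figure D5:**
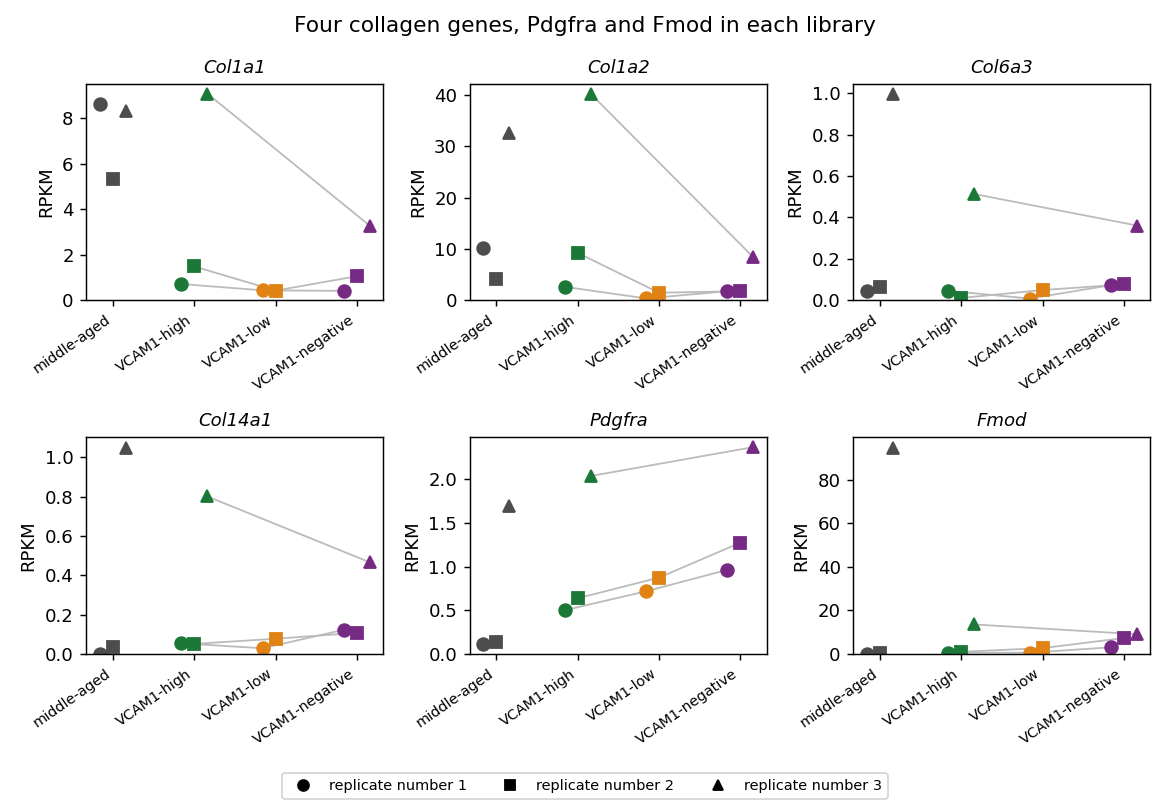
RPKM (vertical axes, linear, from 0) of Col1a1, Col1a2, Col6a3, Col14a1, Pdgfra and Fmod in each library by group, with symbols for replicate numbers and lines joining geriatric libraries of the same number. The number-3 library (triangle) is the highest of its group in all panels except Col1a1 in the middle-aged group, where replicate 1 (8.62 RPKM) lies just above replicate 3 (8.31 RPKM).

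The 24 members that were not tested had their highest library between 0.0107 and 1.29 RPKM. Of these, 2 reached 1 RPKM in 1 library, Col20a1 (1.29) and Col14a1 (1.05), both in middle-aged replicate 3. Of the 24, 12 were at 0 in at least 1 library, and 6 stayed at or under 0.1 RPKM in every library. Among these last 6 were Col2a1 and Col10a1, the chains that mark cartilage, at up to 0.0909 and 0.0442 RPKM. The cartilage chain Col11a1 reached 0.156 RPKM, and Col22a1, a chain of muscle-tendon junctions, 0.256 RPKM in middle-aged replicate 3 and at most 0.0245 elsewhere. Col25a1, a transmembrane chain needed in mice for motor nerves to enter muscle, read 0.0121 to 0.175 RPKM. Col13a1, a transmembrane chain of the neuromuscular junction, read 0.490, 0.859 and 0.650 RPKM in VCAM1-high and 0.0850 to 0.421 RPKM in all other libraries.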

How the data were processed

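Bulk RNA-seq was made from sorted muscle stem cells in 11 libraries of 4 groups. GRCm39, STAR 2.7.5b, Bowtie2 2.1.0, SAMtools 0.1.19 and cutadapt 3.1 are named in the submitters' processing notes, without their roles. No source used here gives the counting tool or annotation. Each gene symbol has an RPKM value per library, deposited by the authors, which carries no count. Depth was estimated from steps between low values of 3428 genes with 1 transcript, of which 63.3% to 71.9% lay within 0.1 of a whole read (20% by chance).

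The 11568 genes that reached 1 RPKM in 2 or more libraries were tested on log2(RPKM + 1) with limma 3.58.1 (R 4.3.3), with 4 group means, a variance trend and Benjamini-Hochberg adjustment; called means adjusted p under 0.05. The fit without a block was also run on simulated data, for VCAM1-negative against VCAM1-high only. The simulated libraries were independent, unlike the same-numbered libraries here, and the fits with a block were not simulated. Its outcome is not given and is not used for the calls. All 44 collagen rows are accounted for. Values by library are given for members called in any comparison, for the 3 highest of each class, and for Col5a1, Col5a3, Col6a1 and Col6a2; companion genes are at most 4 a list. The members, classes and lists were chosen with earlier results of these data known.

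Replicate numbers come from the titles. Same-numbered libraries deviated together over genes in VCAM1-negative and VCAM1-high (correlations 0.414, 0.581 and 0.403 for numbers 1 to 3) and in VCAM1-high and middle-aged (0.211, 0.332 and 0.554), but not in VCAM1-negative and middle-aged (-0.03, 0.03 and 0.08). The block is therefore shown beside the former comparisons. Correlations between unlike numbers were not computed, and calls that need the block rest on the assumption that the numbers pair libraries. Between VCAM1-high and middle-aged libraries such a pair cannot be from the same mouse, as the ages differ. The block in 11 libraries also applies the numbers to VCAM1-negative and middle-aged libraries, where they did not correlate. Alternatives were other pseudocounts (0.1 and 0.5), filters, scalings, blocks and omissions.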

Additional observations from a re-analysis of the deposited data

How the results depend on the processing

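Each named collagen difference that passed the test without a block kept its direction in every alternative run. Of those called in any alternative, Col6a1 in VCAM1-negative against VCAM1-high cells turned to 0.03 without VCAM1-high replicate 3, with or without middle-aged replicate 3. Without a filter on low values the count was 4 for VCAM1-negative against middle-aged cells, 0 for VCAM1-low against middle-aged cells and 0 for any difference among 4 groups, where more genes enter the adjustment. With a mean of at least 5 RPKM it was 1 for VCAM1-negative against VCAM1-high and 1 for VCAM1-high against middle-aged cells. With the replicate block in 11 libraries the counts were 1 for VCAM1-negative against VCAM1-high, 7 for VCAM1-high against middle-aged, 14 for VCAM1-negative against middle-aged (31.6% of all genes), 12 for VCAM1-low against middle-aged (15.8%) and 14 for any difference (17.5%), and with the block in geriatric libraries 11 for VCAM1-negative against VCAM1-high. Without a filter the block in 11 libraries gave 1 for VCAM1-high against middle-aged and 9 for any difference, and the geriatric block 0 for VCAM1-negative against VCAM1-high. Without number-3 libraries the counts were 3 for VCAM1-high, 10 for VCAM1-low against middle-aged and 7 for any difference without a block, 13, 14 and 15 with the block in 11 libraries, and 9 for VCAM1-negative and 2 for VCAM1-low against VCAM1-high with the geriatric block. Only the 2 groups compared gave 13 for VCAM1-low against middle-aged, and leaving out VCAM1-high and middle-aged replicates 3 gave 1 for VCAM1-high against middle-aged. Omitting 1 library at a time, the counts ran from 1 to 12 for VCAM1-negative, 0 to 4 for VCAM1-high and 0 to 12 for VCAM1-low against middle-aged, 0 to 1 for VCAM1-negative against VCAM1-high, and 0 to 11 for any difference. With the block in 11 libraries those ranges were 11 to 14, 0 to 13, 0 to 14, 0 to 1 and 10 to 16. With the geriatric block they were 1 to 9 for VCAM1-negative and 0 to 2 for VCAM1-low against VCAM1-high (6 for VCAM1-negative without VCAM1-high replicate 1, and 5 and 7 without VCAM1-negative replicate 1 and VCAM1-high replicate 3). The alternatives with the block in single omissions, without a filter or without number-3 libraries were chosen after seeing the data, as were leaving out both replicates 3 and the omissions for companion genes and class ratios. Where other causes could move a count, the cause was not tested. Counts printed without a share of all genes in the same run cannot be set against all genes. Pseudocounts of 0.1 and 0.5 and both rescalings changed none of the counts by over 1.5 times. Depth limits the lowest members, and at an equal RPKM a shorter gene rests on fewer reads.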
